A study of Drosophila melanogaster with 4 samples.

Results

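The peaks described here are the strong and compact peaks of Distal-less (Dll) on the large autosomal arms of Drosophila melanogaster. They were taken from 1 list of peaks as those on 2L, 2R, 3L or 3R with a score of 70 or more and a width of 600 bp or less, and 227 of the 16117 peaks of the list met this rule. Binding was assayed by ChIP-seq in white prepupae, the immobile stage that opens metamorphosis, with 2 libraries of DNA precipitated by a rabbit polyclonal antibody against Dll and 2 libraries of input DNA. The strain of all 4 libraries was Y cn bw sp, for which the labels list y[1] with oc[R3.2], then Gr22b[1] and Gr22d[1], cn[1] followed by CG33964[R4.2], bw[1] and sp[1], and finally LysC[1] with lab[R4.2], MstProx[1], GstD5[1] and Rh6[1]. The labels name no dissected tissue, so a peak cannot be given to a cell type. The list holds 1 score per peak for the whole series and no value per library, so read depth is not known and replicates cannot be compared. The spreads below are between peaks or between windows of the genome, and the labels do not state how the replicate animals were collected, so replicates may be technical.

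Dll is a homeodomain transcription factor of the Dlx family, and it is required for the distal segments of the legs and for the antennae and mouthparts. Homeodomain proteins bind short AT-rich sites that occur throughout the genome. A factor bound at a single site commonly gives a narrow peak in ChIP-seq, while several sites near each other, or a long stretch of open chromatin, can give a wider one. The comparison therefore sets strong narrow peaks against strong wider ones and asks what surrounds them along the chromosome. Peaks lie on FlyBase release 5, and no sequence or gene annotation of that release was used here, so no gene is named beside a peak and no motif was searched.

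Score and width chose these peaks, and both are given as a description only. Scores of the 227 peaks ran from 70.05 to 408.06 with a median of 93.55 (interquartile range 78.58 to 116.9), and widths from 335 to 600 bp with a median of 520 bp (467.5 to 560.5 bp). Autosomal peaks with the same minimum score and a width over 600 and up to 2000 bp numbered 1188, and these wider peaks had a median score of 124.6 (91.2 to 189.0) and a median width of 1010 bp. The compact peaks were narrow only for their score. Of the 227, 196 (86.3%) were wider than 436 bp, the median of all 13762 autosomal peaks, and they made up 2.40% of the 9460 autosomal peaks of up to 600 bp. They were 13.7% of the 1660 autosomal peaks with a score of 70 or more, and a further 245 of those were wider than 2000 bp.

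**Figure D1:**
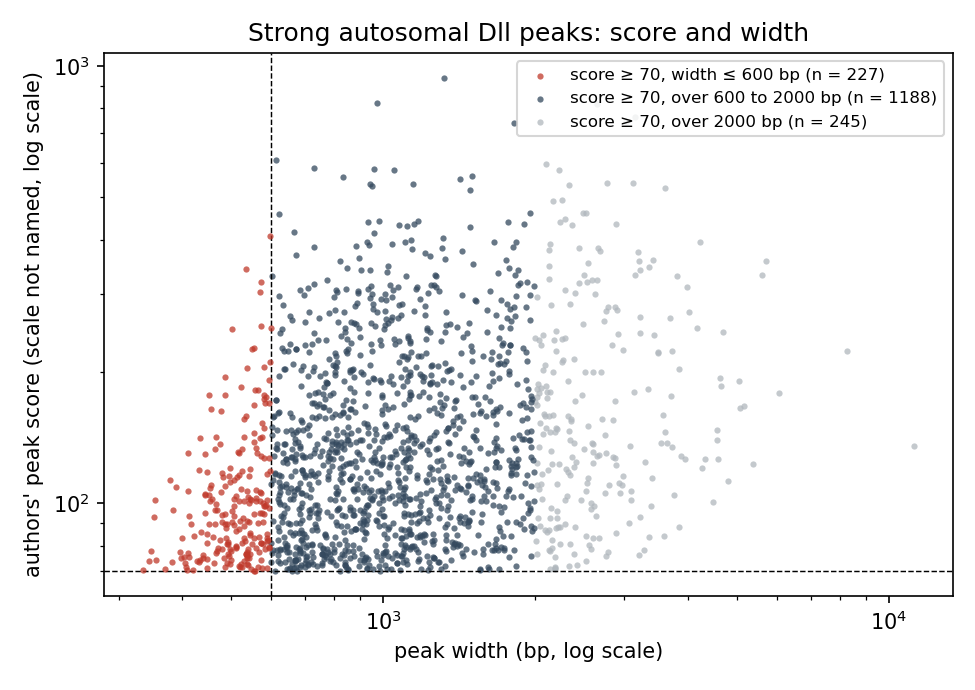
Score (vertical, the authors' value, log scale) against width (horizontal, bp, log scale) of each autosomal peak with a score of 70 or more, with dashed lines at the 2 thresholds of the rule. The 227 compact peaks form the low-scoring left edge of 1 continuous cloud, with 4 of them above a score of 300.

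Among strong peaks, the share of compact peaks was lower at higher scores. Score and width chose the compact peaks, so these shares only describe the list and no interval is given. Compact peaks were 67 of 258 strong peaks (26.0%) with scores from 70 to 80 and 64 of 526 (12.2%) from 100 to 150. At 300 or more they were 4 of 138 (2.90%). Of the compact peaks, 133 (58.6%) scored below 100, against 378 (31.8%) of the wider ones. No gap separated the compact peaks from the others at either threshold. The lowest scores inside were 70.05 and 70.14, and the highest scores outside, among peaks of up to 600 bp, were 69.73 and 69.89. The widest inside measured 599 and 600 bp, and 3 strong peaks exceeded the limit by 1 bp. Strong peaks of over 550 and up to 600 bp numbered 69, and those of over 600 and up to 650 bp numbered 82. Among the compact peaks, the Spearman correlation between score and width was 0.268 and Pearson's r of their log10 values 0.295, given over 227 peaks that share the same libraries.

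The 10 highest compact peaks scored from 210.3 to 408.06 and ranked between 45 and 318 among the 1660 strong autosomal peaks. The first lay on 3L at 14267020 to 14267617, scored 408.06 over 598 bp, and had 5 other peaks within 25 kb of its midpoint. The next, on 2R at 14540189 to 14540723, scored 342.7, was 535 bp wide and had 10 other peaks within 25 kb. On 2L, the peak at 8717875 to 8718448 (score 320.98) had 2 others within 25 kb, and the peak at 9782037 to 9782606 (score 303.77) had 5. All 10 had the highest score within 10 kb on either side. They were picked by score, so this follows in part from the choice. The share over all compact peaks is given further on.

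Some of the 10 had close strong neighbours. On 3R at 10111900 to 10112499 (score 251.85) and on 2R at 7554015 to 7554612 (210.3), another peak of score 70 or more lay 2.60 kb and 1.20 kb away. The highest, on 3L at 14267020 to 14267617 (408.06), had a strong peak of score 82.86 at 1.19 kb. In 4 of the 10 there was no other strong peak within 25 kb. One of these was the 2L peak of score 303.77, whose nearest strong peak was 200.9 kb away while its nearest peak of any score, at 658.5 bp, scored 13.18. The others were the peaks on 3L at 2489813 to 2490385 (score 253.59, nearest strong peak at 63.4 kb), on 2L at 3354684 to 3355187 (250.79, at 51.9 kb) and on 3R at 7430338 to 7430893 (225.97, at 35.7 kb). The peak on 2R at 7271430 to 7271979 scored 225.37, and its nearest strong peak lay 18.2 kb away.

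The 10 narrowest compact peaks measured 335 to 385 bp and scored from 70.45 to 112.86, with a median of 76.0. The narrowest was on 2R at 5830312 to 5830646, with a score of 70.45, and its nearest strong peak, 12.2 kb away, scored 520.2. On 2R at 14560838 to 14561181, a peak of 344 bp scored 73.81, and on 3L at 18022608 to 18022955 a peak of 348 bp scored 77.76. On 2L, the peak at 20120890 to 20121269 reached a score of 112.86 in 380 bp and stood 296.4 kb from any other strong peak. The peak on 2R at 6447131 to 6447485 (355 bp, score 101.47) was the opposite case, with 23 other peaks within 25 kb, of which 10 were strong. The remaining 5 had 3 to 14 other peaks within 25 kb. Of the 10 narrowest, 7 had the highest score within 10 kb.

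Compact peaks stood in stretches with fewer other peaks than the wider peaks did. They had 8.21 ± 4.95 other peaks within 25 kb, midpoint to midpoint (mean ± SD over 227 peaks), against 11.0 ± 5.91 for the 1188 wider peaks. The difference was -2.80 peaks (95% interval -3.52 to -2.07). Single values overlapped widely, from 0 to 24 around compact peaks and from 0 to 30 around wider ones, with medians of 7 and 10. Stretches dense with peaks, with 20 or more others within 25 kb, surrounded 7 compact peaks (3.08%, exact 95% interval 1.25 to 6.25%) and 104 wider ones (8.75%, 7.21 to 10.5%). Peaks are not replicates of an experiment and no test was run over them. The intervals are analytic, treat peaks as independent and describe this list only. Neighbouring peaks share their neighbours, and 51 of the 227 compact peaks (22.5%) had another compact peak within 25 kb, so the intervals are too narrow. When peaks within 1000 bp of each other were merged beforehand, 125 compact regions were left, and the difference shrank to -0.77 (95% interval -1.26 to -0.283).

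Weaker peaks made up most of this difference, and they were also most of the neighbours of both kinds. Compact peaks had 6.79 ± 4.21 peaks of score under 70 within 25 kb, against 9.37 ± 5.28 around the wider peaks, a difference of -2.58 (95% interval -3.20 to -1.95). For other peaks of score 70 or more the numbers were 1.42 ± 1.69 and 1.64 ± 1.60, and the interval of the difference, -0.22 (-0.459 to 0.0181), included 0. This pooled value averages over arms of opposite sign, which are given by arm further on. The count of all peaks within 25 kb is the sum of these 2 classes. As ratios of means, compact over wider, the values were 0.725 for weaker and 0.866 for strong neighbours.

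From 1 kb outwards, the shortfall narrowed with distance, and it was still seen from 50 to 100 kb. From 2 to 5 kb away, compact peaks had 1.46 weaker peaks per 10 kb of flank, against 2.20 around wider peaks, a ratio of 0.666. The ratio was 0.744 from 10 to 25 kb, 0.798 from 25 to 50 kb and 0.888 from 50 to 100 kb. From 100 to 200 kb it was 0.965, with densities of 1.32 and 1.37 per 10 kb. For all peaks within 100 kb, the ratio of mean counts was 0.721 on 2L, 0.928 on 2R, 0.891 on 3L and 0.801 on 3R. Around compact peaks the density of weaker peaks was nearly level beyond 2 kb, from 1.46 down to 1.30 per 10 kb. Around wider peaks it fell with distance throughout. Closer than 1 kb the order was turned round, with 1.24 other peaks of any score per 10 kb around compact and 0.758 around wider peaks. A wider peak itself covers more of that first 1 kb, so this bin depends on the width that chose the peaks.

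**Figure D2:**
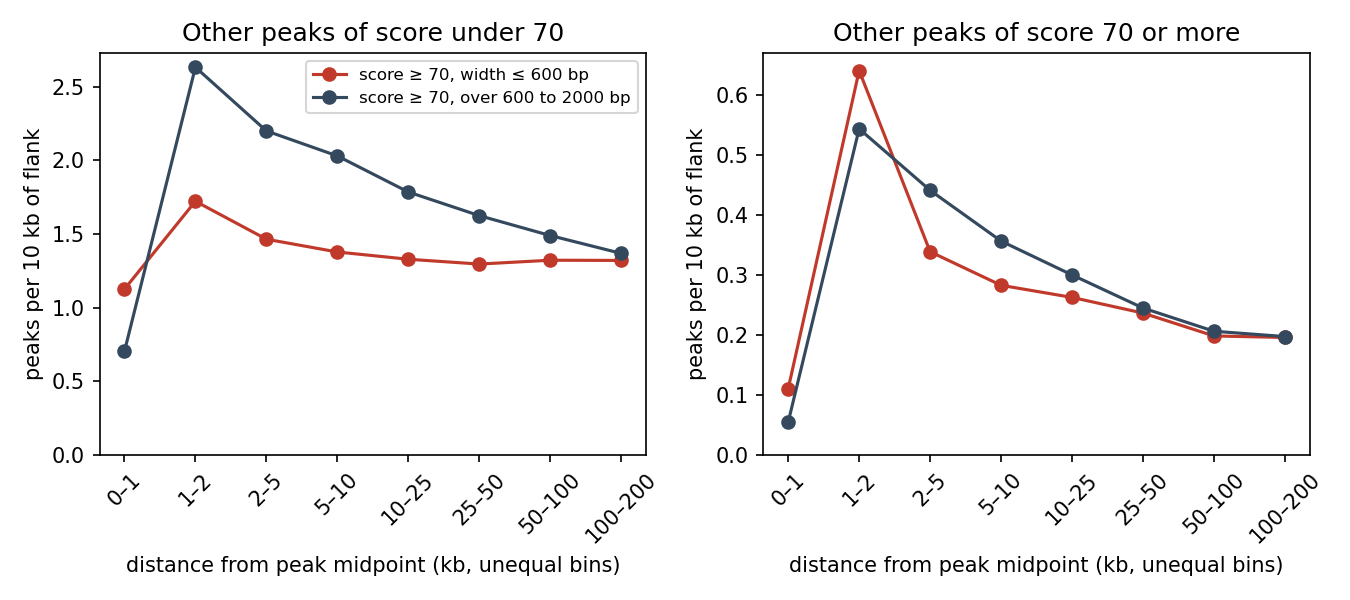
Other peaks per 10 kb of flank (vertical) by distance from a peak's midpoint (horizontal, kb, bins of unequal size), for other peaks of score under 70 (left) and of 70 or more (right). Weaker peaks are sparser around the 227 compact peaks than around the 1188 wider peaks from 1 to 100 kb, and the curves meet at 100 to 200 kb.

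The number of neighbours rose over the width classes above 600 bp, and the classes of compact peaks were alike. Compact peaks of up to 500 bp had 8.31 ± 4.85 others within 25 kb (SD, n = 94 peaks) and those over 500 bp had 8.14 ± 5.04 (n = 133 peaks). Strong peaks over 600 and up to 800 bp had 10.2 ± 5.35, those up to 1200 bp 10.9 ± 6.08, those up to 2000 bp 11.8 ± 6.02, and those wider than 2000 bp 14.2 ± 6.59. Within the compact peaks, the Spearman correlation of width with the number of neighbours was 0.0486, given as a description over 227 peaks. Within the wider peaks of up to 2000 bp, which span a larger range of widths, it was 0.102. These values therefore do not show that compact peaks alone lack the relation.

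**Figure D3:**
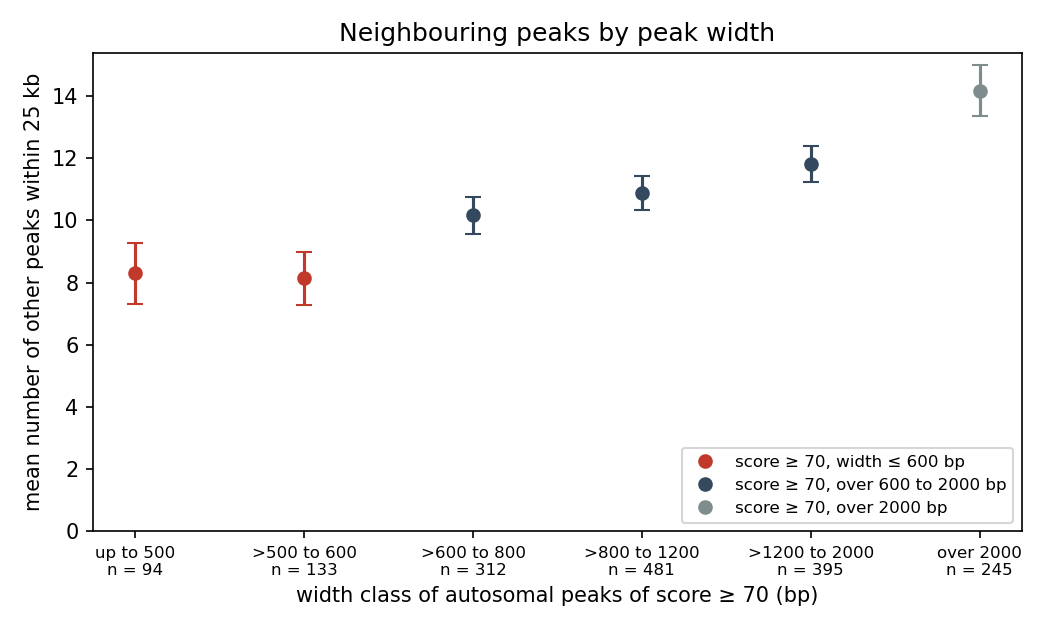
Mean number of other peaks within 25 kb (vertical) of autosomal peaks with a score of 70 or more, by width class (horizontal, bp). Bars are 95% intervals of the mean over peaks. Both classes of compact peaks, at 8.31 and 8.14, lie below the 4 wider classes, at 10.2 to 14.2.

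The lower number of neighbours held within classes of score. In each of 4 classes of score, compact peaks had fewer neighbours within 25 kb. The means were 9.01 against 12.0 for scores from 70 to 80, 8.11 against 11.4 from 80 to 100, 8.05 against 10.9 from 100 to 150, and 6.97 against 10.5 at 150 or more, with 67, 66, 64 and 30 compact peaks in the classes. It held against narrow peaks of lower score as well. The 9233 autosomal peaks of up to 600 bp with scores under 70 had 10.5 ± 5.94 others within 25 kb, and the difference of the compact strong peaks from these was -2.25 (95% interval -2.91 to -1.60). Where both kinds shared a window of 1 Mb, the comparison was made inside the window. In 85 such windows, with 225 compact peaks, the mean of the compact peaks was the lower in 62 and the higher in 23. Weighted by compact peaks, the means were 8.28 and 10.3, a difference of -2.01.

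Pooled over the arms, the midpoint distance to the nearest peak of any score did not separate the kinds. Its median was 1817 bp for compact peaks (95% interval 1546 to 2325 bp, range 467 to 95665 bp) and 1746 bp for wider ones (1642 to 1856 bp), a ratio of medians of 1.04 (0.841 to 1.29). Measured between edges, where the width of the peak itself enters, the medians were 1268 and 796 bp. The peak on the other side was farther away, at a median of 7.42 kb for compact peaks (95% interval 6.02 to 9.58 kb) and 5.14 kb for wider peaks (4.81 to 5.58 kb), a ratio of 1.44 (1.13 to 1.84). Midpoint distances also depend on width, since a wider peak itself covers more of the first 1 kb. Above 600 bp, the median midpoint distance of strong peaks to the nearest peak rose with width. It was 1508.5 bp for widths up to 800 bp and 2293.5 bp over 2000 bp. The ratio of 1.04 therefore does not show like spacing. That ratio also averages over arms of opposite direction, and without 2R it was 1.28 (0.995 to 1.64).

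Another strong peak was farther from compact than from wider peaks. The median distance to the nearest other peak of score 70 or more was 17.7 kb (95% interval 12.9 to 21.1 kb) for compact peaks and 11.2 kb (9.68 to 12.8 kb) for wider ones, a ratio of 1.57 (1.19 to 2.09). By score, the medians for compact and wider peaks were 18.0 and 11.8 kb from 70 to 80, 20.8 and 14.2 kb from 80 to 100, and 16.0 and 10.4 kb from 100 to 150. At scores of 150 or more the order was turned round, with 9.41 kb for 30 compact peaks and 10.0 kb for 421 wider ones, and the intervals overlapped. Of the compact peaks, 59 (26.0%) had a strong peak within 5 kb, against 365 (30.7%) of the wider. No other strong peak stood within 25 kb of 90 compact peaks (39.6%) and of 348 wider peaks (29.3%), a difference of 10.4 percentage points (95% interval 3.67 to 17.3). From weaker peaks of up to 600 bp the median distance was 17.0 kb (95% interval 16.4 to 17.6 kb), and the ratio of compact to these peaks was 1.04 (0.812 to 1.34). The interval of the ratio between compact and wider peaks included 1 when strong meant a score of 100 or more (1.08, 0.626 to 1.87), when compact meant up to 700 bp (1.20, 0.937 to 1.53), and when peaks within 1000 bp of each other were merged (1.34, 0.967 to 1.87).

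**Figure D4:**
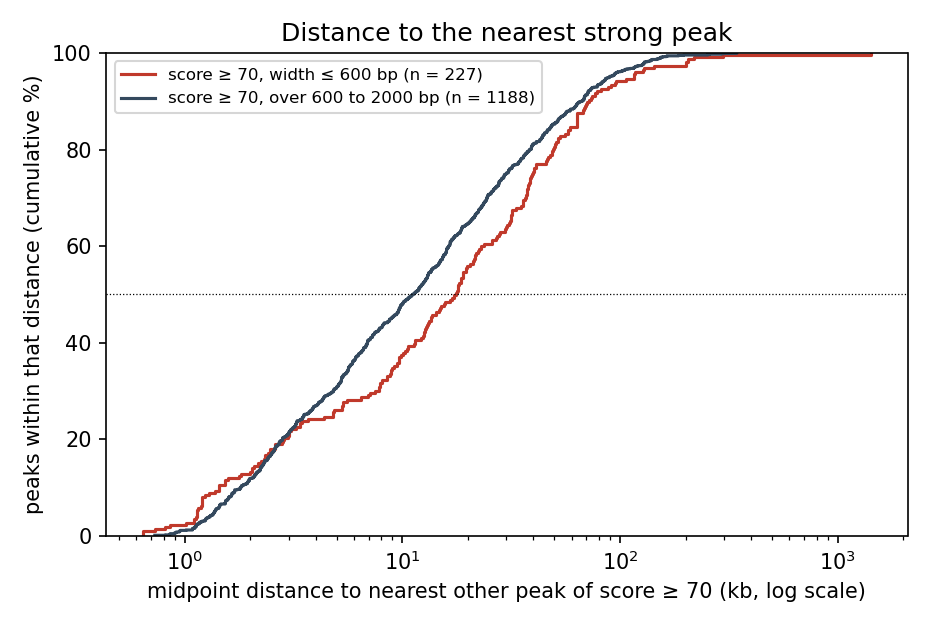
Cumulative share of peaks (vertical, %) by distance to the nearest other peak with a score of 70 or more (horizontal, kb, log scale). The curves run together up to about 3 kb and then part, reaching 50% at 17.7 kb for the 227 compact peaks and at 11.2 kb for the 1188 wider peaks.

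More compact peaks were isolated. No other peak midpoint lay within 10 kb of 24 compact peaks (10.6%, exact 95% interval 6.89 to 15.3%) and of 53 wider peaks (4.46%, 3.36 to 5.80%), a difference of 6.11 percentage points (2.49 to 10.9). The gap was widest at scores from 100 to 150, with 17.2% and 3.34% isolated. It was 8.96 against 5.78% from 70 to 80, 7.58 against 5.85% from 80 to 100, and 6.67 against 4.28% at 150 or more. Without the class from 100 to 150, 13 of 163 compact (7.98%) and 40 of 799 wider peaks (5.01%) were isolated, a difference of 2.97 points whose interval (-0.722 to 8.32) included 0. Among the weaker peaks of up to 600 bp the share was 6.29%. With compact taken as up to 500 bp, the difference was 2.15 percentage points and its interval (-1.88 to 9.36) included 0. The compact peak farthest from any other was the last peak of 3L on the centromere side, at 24362468 to 24363009, a peak of 542 bp that scored 72.2 and had its nearest peak 95.7 kb away and its nearest strong peak 1424 kb away. The peak on 3L at 4976096 to 4976641 (score 76.4) stood 69.7 kb from its nearest peak. On 3R the peak at 14674820 to 14675336 (130.88) stood 52.2 kb from the next, on 2L the peak at 18184520 to 18184975 (109.84) stood 32.3 kb away, and on 3L the peak at 14699505 to 14700023 (130.26) stood 28.7 kb away. These 5 were the compact peaks with 0 other peaks within 25 kb. For the next 5 the distance was 16.8 to 22.4 kb, and 4 of them were on 2L. One of these, at 8735583 to 8736059 with a score of 136.66, had as its nearest peak the compact 2L peak of score 320.98 at 8717875, 17.7 kb away. The 10 farthest included none of 2R.

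At the other end, the compact peaks with the most neighbours were 2 on 3R, at 12541256 to 12541778 (score 72.72) and at 9702846 to 9703388 (score 115.3), each with 24 other peaks within 25 kb. These were picked after their values were seen. In both, 1 of the 24 was strong.

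Runs of peaks were counted too. A run was defined as neighbouring peaks with midpoints at most 5 kb apart. Compact peaks stood alone in 54 cases (23.8%, exact 95% interval 18.4 to 29.9%), against 169 wider peaks (14.2%, 12.3 to 16.3%). Runs of 5 or more peaks held 77 compact peaks (33.9%, 27.8 to 40.5%) and 623 wider ones (52.4%, 49.6 to 55.3%). In runs of 2 or more peaks, the compact peak had the highest score of its run in 113 of 173 cases (65.3%), and the wider peak did so in 661 of 1019 (64.9%).

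The score of the nearest peak did not separate the kinds. The nearest peak had a median score of 21.25 beside compact peaks (95% interval 18.2 to 24.7) and 22.0 beside wider ones (20.0 to 23.7), a ratio of 0.966 (0.810 to 1.15). It was itself strong for 44 compact peaks (19.4%) and 181 wider peaks (15.2%), and the interval of that difference, 4.15 percentage points (-0.946 to 10.1), included 0. A nearest peak with a higher score than the peak itself was found for 29 compact peaks (12.8%) and 76 wider peaks (6.40%), a comparison in which the lower scores of compact peaks enter. The highest score within 10 kb was held by 163 compact peaks (71.8%, exact 95% interval 65.5 to 77.6%) and by 864 wider ones (72.7%, 70.1 to 75.2%), a difference of -0.921 percentage points (-7.57 to 5.12). This share depends on the peak's own score and on its number of neighbours, both lower for compact peaks. With scores from 70 to 150 only, the difference was 3.83 percentage points (-3.67 to 10.7). Beside compact peaks the nearest peak was narrower, with a median of 428 bp against 498.5 bp (ratio 0.859, 95% interval 0.775 to 0.951). This value depends in part on the width that chose the peaks. Only a narrow neighbour can have its midpoint very close, and only beside a narrow peak. On each of the 4 arms the interval of this ratio included 1.

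Of the 1660 strong autosomal peaks, 13.7% were compact. When the nearest strong peak was looked up by its kind, it was another compact peak for 43 of the 227 (18.9%, exact 95% interval 14.1 to 24.7%) and a compact peak for 144 of the 1188 wider peaks (12.1%, 10.3 to 14.1%), a difference of 6.82 percentage points (1.85 to 12.7). It was largest on 2R, where the shares were 28.3% and 10.6%, a difference of 17.7 points (6.07 to 32.3). On 2L the difference was -0.931 points, and on 3L and 3R it was 5.64 and 5.15 points, with intervals that included 0 on all 3 arms. Without 2R the shares were 16.6% and 12.7%, a difference of 3.92 points (-1.35 to 10.3), an alternative added after the values were seen. Compact peaks that are each other's nearest strong peak are both counted, so these intervals are too narrow. Compact peaks were still spread thinly. Of 223 pairs of compact peaks next to each other on an arm, 10 were at most 5 kb apart and 26 at most 25 kb, with a median distance of 227.5 kb (interquartile range 75.9 to 605.0 kb). In 8 of the pairs no other peak lay between.

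The closest pair was on 3R, at 9882412 to 9882909 (score 72.65) and 9883081 to 9883524 (104.32), with midpoints 642 bp apart and a gap of 171 bp. On 2R the peaks at 6441540 to 6442103 (130.44) and 6442697 to 6443158 (83.52) were 1106 bp apart. On 2L the peaks at 17429745 to 17430209 (132.79) and 17430881 to 17431346 (96.42) were 1136.5 bp apart. Again on 2R, the peaks at 7552867 to 7553354 (176.79) and 7554015 to 7554612 (210.3) were 1203 bp apart. On 3L the peaks at 18056290 to 18056796 (112.84) and 18057693 to 18058275 (204.43) were 1441 bp apart. None of these 5 pairs had another peak between its members. The only run with 3 compact peaks lay on 2R from 6419996 to 6457230 and held 21 peaks, of which 9 were strong. It contains the second of these pairs and the narrow peak at 6447131.

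By arm, 50 compact peaks were on 2L, 46 on 2R, 65 on 3L and 66 on 3R. Their density was 2.18 per Mb on 2L and 2.18 on 2R, 2.67 on 3L and 2.37 on 3R, taking the span from the first to the last peak as the length of an arm. The wider peaks varied more, with 10.1 per Mb on 2L, 14.4 on 2R, 11.6 on 3L and 13.3 on 3R. Of both kinds together, the compact made up 18.7% on 3L (exact 95% interval 14.7 to 23.2%), 17.7% on 2L (13.5 to 22.7%), 15.1% on 3R (11.9 to 18.9%) and 13.2% on 2R (9.81 to 17.2%). These intervals overlap, so the order of the arms is not resolved. Median scores of the compact peaks were 90.63 on 2L, 96.0 on 2R, 94.82 on 3L and 94.2 on 3R.

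The lower number of neighbours within 25 kb was seen on each arm. Compact and wider peaks had 6.64 ± 3.85 and 9.76 ± 5.27 on 2L, 9.70 ± 5.47 and 11.6 ± 6.36 on 2R, 8.51 ± 4.74 and 11.0 ± 5.76 on 3L, and 8.06 ± 5.27 and 11.3 ± 5.92 on 3R. The difference was smallest on 2R, at -1.91 (95% interval -3.64 to -0.173), and was -3.23 (-4.63 to -1.82) on 3R. Counts of all peaks within 10 kb and of weaker peaks within 25 kb kept this direction on 2R, with differences of -0.878 (95% interval -1.72 to -0.038) and -2.53 (-3.91 to -1.15). Strong neighbours did not. On 2R compact peaks had 2.46 ± 2.34 other strong peaks within 25 kb and wider peaks 1.83 ± 1.89, a difference of 0.62 (-0.0862 to 1.33), while the difference was -0.54 (-0.904 to -0.178) on 2L, -0.29 (-0.667 to 0.0931) on 3L and -0.43 (-0.825 to -0.0362) on 3R.

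Distances to single neighbours and the share of isolated peaks also lacked the pooled direction on 2R. There the nearest strong peak was 10.2 kb from compact and 10.1 kb from wider peaks, while on 2L the medians were 26.3 and 13.2 kb, on 3L 18.0 and 9.60 kb, and on 3R 18.8 and 11.6 kb. Of the ratios of these medians, only that of 2L, 2.00 (1.10 to 3.63), had an interval that left out 1. Isolated peaks were 2 of 46 compact (4.35%) and 20 of 303 wider peaks (6.60%) on 2R, and 10.8 to 13.6% of compact peaks against 3.45 to 4.24% of wider peaks on the other 3 arms. The nearest peak of any score was closer to compact peaks on 2R, with medians of 1203 and 1957 bp (ratio 0.615, 95% interval 0.404 to 0.934), whereas on the other arms the ratios were 1.20 to 1.26, with intervals that included 1. For the peak on the other side the ratio was 0.908 on 2R, with an interval that included 1, and 1.65 to 1.80 on the other arms. Whether 2R differs from the other arms was not tested.

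**Figure D5:**
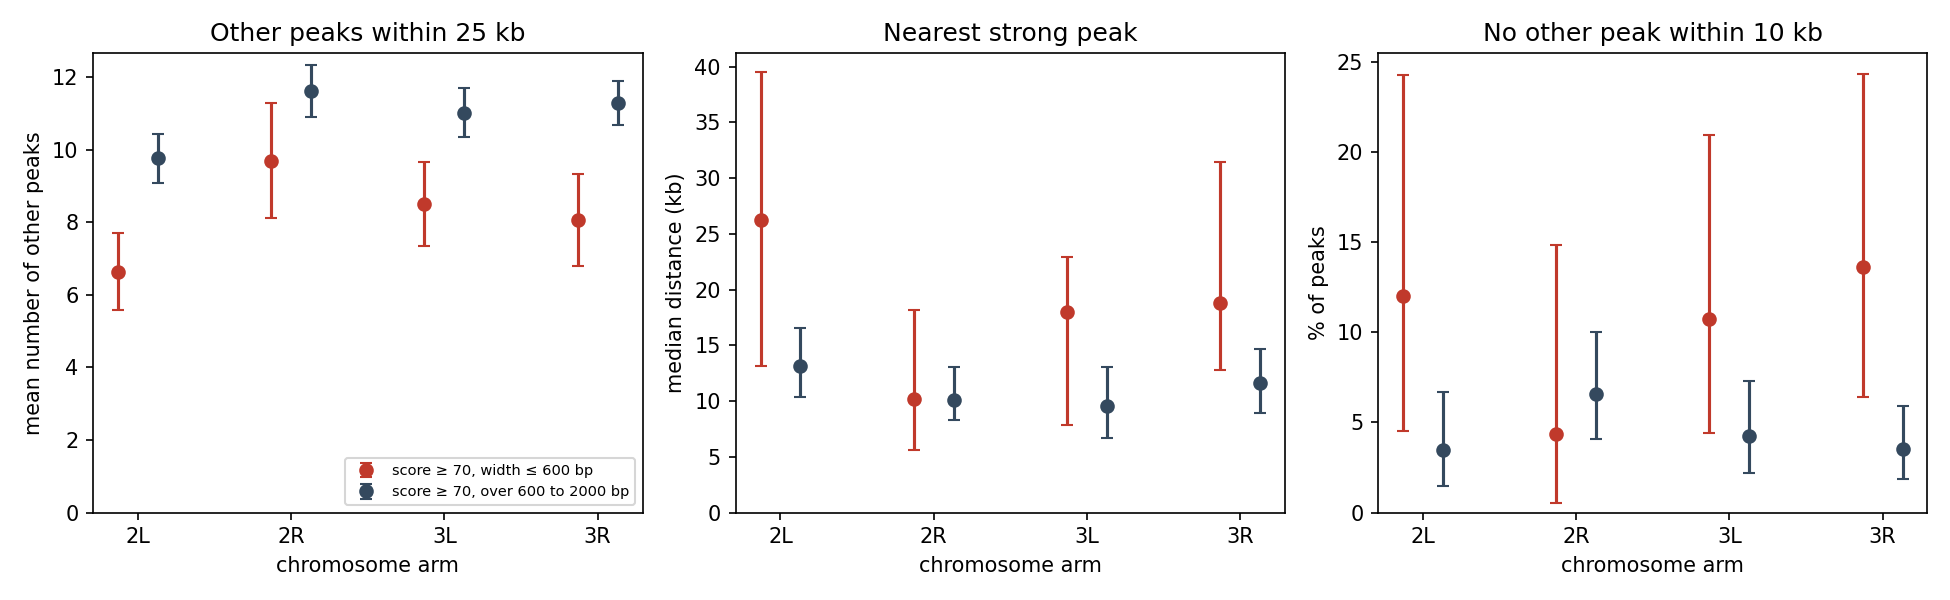
Mean number of other peaks within 25 kb (left), median distance to the nearest peak of score 70 or more (middle, kb) and share of peaks with no other within 10 kb (right, %), for compact and wider peaks of each arm, with 95% intervals over peaks. The mean number of neighbours is lower for compact peaks on all 4 arms, and on 2R the other measures lie close together or in the opposite order.

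Along the arms, the share of peaks next to the centromere and the median position did not separate compact from wider peaks. The 2 Mb of each span next to the centromere held 10 compact peaks (4.41%, exact 95% interval 2.13 to 7.95%) and 50 wider ones (4.21%, 3.14 to 5.51%). The outermost peak sets the end of a span. On 3L this was the compact peak at 24362468 to 24363009, which is therefore counted here by construction. Measured from the centromere end, the median position was 41.9% of the span for compact peaks (95% interval 37.8 to 51.1%) and 48.6% for wider ones (45.9 to 51.6%). The centromere-side part of the arms, cut at the middle of each span, held 127 compact (55.9%) and 603 wider peaks (50.8%), and the interval of the difference, 5.19 percentage points (-1.91 to 12.1), included 0. Shorter stretches of the span, counted from the centromere, were less alike. From 20 to 40% of the span there were 73 compact peaks (32.2%) and 257 wider peaks (21.6%), and from 70 to 90% there were 25 compact (11.0%) and 223 wider peaks (18.8%). These stretches were picked after their values were seen, so no interval is given.

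In windows of 1 Mb, compact peaks numbered 2.38 ± 1.80 (SD, n = 94 windows), with a variance 1.35 times the mean, and wider peaks 12.5 ± 5.86, with a variance 2.75 times the mean. A class with a low mean count has a variance nearer to its mean for the same degree of clustering, so these values do not show that compact peaks are less clustered. The number of compact peaks in a window had a Spearman correlation of -0.0046 with the number of all peaks there, over 94 windows that share the same libraries. For the wider peaks, which make up more of all peaks, it was 0.600. Low counts per window also pull a correlation towards 0. These values therefore do not show that compact peaks lie independently of the density of peaks. Compact and wider peaks had a correlation of 0.199. Of the windows, 10 had no compact peak. The window on 3L from 18000214 to 19000213 held the most, 8 compact peaks among 98 of any kind, followed by 7 on 2R from 7059208 to 8059207 and 7 on 3R from 10000184 to 11000183. These windows were picked by their counts.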

How the data were processed

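Dll ChIP DNA and input DNA of white prepupae were sequenced in 2 libraries each. Per the submitters' processing notes, the tools were BWA and MACS2 on build BDGP 5 and CASAVA in its versions 1.7.0.2 and 1.7.0.3. The calling threshold, any pooling of replicates and all remaining versions were not given in the sources used here. The deposited list, per the file headers, is in GFF version 3, which counts positions from 1, on FlyBase release 5. The authors deposited 1 score for each peak under the name MACS with no scale, so it was used only to filter, rank and describe peaks within the list. A threshold set when the peaks were called removes weaker neighbours, and any joining of nearby signal sets widths and gaps. A gene table of release 6, another build, was not used.

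Widths are end minus start plus 1. Distances run between midpoints, since gaps between edges depend directly on width, and neighbours are all peaks of the same arm. Short midpoint distances still depend on width, since a wider peak itself covers more of the nearby sequence. Medians have 95% intervals from order statistics, ratios of medians the normal interval of the log ratio from these, differences of means normal intervals, shares exact Clopper-Pearson intervals, and differences of shares Newcombe intervals. All cover counting error only. Scripts ran in Python 3.11.15 with numpy 2.4.6, pandas 2.3.3 and scipy 1.17.1 and were tested on simulated lists. Peaks named are the 10 highest, the 10 narrowest and the 10 most distant from any other, and the 5 closest pairs. The rule, the comparison and the measures were chosen with earlier results of these data known. The comparisons with weaker narrow peaks, by score and width class, by run, by distance bin and within windows were added after the list was seen. Other measures were not among those planned either. They are the distance on the other side, dense stretches, the lack of a strong peak within 25 kb and the width of the nearest peak. The kind of the nearest strong peak and the position along the span beyond the 2 Mb next to the centromere also belong here.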

Additional observations from a re-analysis of the deposited data

Results flagged for a closer look

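Strong compact peaks also occur on sequence that the comparisons above do not use, and they are given here for that reason. On Uextra, the collection of sequence not placed on a chromosome, 46 of the 53 peaks with a score of 70 or more were 600 bp wide or less (86.8%). On the 4 autosomal arms it was 227 of 1660 (13.7%). These shares only describe the list, so no interval is given. The 46 peaks had a median score of 87.5, with a range of 70.13 to 270.67, and a median width of 447 bp. On X, 61 of 327 strong peaks were compact (18.7%), with a median score of 99.5 and a median width of 506 bp. Chromosome 4, U and mapped heterochromatin each held 1. Neither difference from the autosomal arms was tested, and the cause was not tested.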

How the results depend on the processing

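Of 116 alternative values for 12 results, 84 stayed within the 95% interval of the reported value and 0 differences with an interval away from no difference changed sign. The difference in neighbours within 25 kb kept its sign in 16 of 16 alternatives, and 15 of their intervals left out 0. For isolated peaks these numbers were 14 of 14 and 12. The ratio of distances to the nearest strong peak kept its side in 11 of 11, with 8 intervals that left out 1. Measures without a clear difference kept their side less often. For the nearest peak it was 7 of 11 for distance and 7 of 12 for score. For the highest score within 10 kb it was 8 of 12, and for the centromere side 5 of 12. Alternatives without an arm share most peaks with the reported values. Moving a threshold changes the set by construction. A score of 100 or more left 94 compact peaks, a limit of 500 bp left 94, a limit of 700 bp gave 402 and merging within 1000 bp left 125. The share of compact among both kinds moved accordingly. With a score of 100 or more it was 9.84% on 2L, 12.6% on 3L and 9.23% on 3R. At 500 bp it was 8.16% on 2L, 5.44% on 2R, 6.61% on 3L and 6.65% on 3R, and at 700 bp 33.0%, 22.3%, 32.8% and 26.8%. With scores from 70 to 150 only it was 24.3% on 2L, 23.5% on 3L and 19.3% on 3R, with wider peaks of up to 1200 bp 19.7% on 2R, 25.9% on 3L and 21.2% on 3R, and after merging 8.29% on 2R. The difference in neighbours, -2.80, was -1.30 within 10 kb, -4.51 within 50 kb and -6.32 within 100 kb, as longer flanks hold more peaks, -0.77 after merging and -0.22 for strong neighbours only. The isolated share differed by 2.15 percentage points at 500 bp and by 1.80 for no peak within 20 kb. The ratio for the nearest strong peak was 1.08 with a score of 100 or more, and that for the nearest peak was 1.59 between edges, which depend on width. The difference on the centromere side was -2.84 percentage points over 3 Mb. Except where stated, the cause was not tested. Neighbours within 100 kb, from 1 kb outwards, weak or strong neighbours alone, and isolation without scores from 100 to 150 were added after the data were seen. No paired analysis was possible because the list has no value per library, and for the same reason no replicate could be left out. Depth is unknown, so peaks that more reads would add around compact or wider peaks are not counted.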
